A study of Homo sapiens with 12 samples.

Results

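The 249 protein-coding genes of human chromosome 19 whose GENCODE symbol begins with ZNF were followed through every table of unique molecular identifiers (UMIs) of a study of single-cell RNA sequencing assays. They were chosen by position, gene type and symbol alone, out of 20046 protein-coding genes of the annotation. Nearly all of these genes encode proteins with C2H2 zinc fingers, and many also carry a Krüppel-associated box (KRAB). A KRAB protein binds DNA through its fingers and recruits the corepressor TRIM28, which brings SETDB1 and heterochromatin proteins to the bound site, often a transposable element. The genes arose largely by tandem duplication and lie in clusters, and their mRNAs are known to be scarce, which makes them a demanding target for counting in 1 cell. Near copies share sequence, and 66 of the 249 genes overlap another protein-coding gene on the same strand and 48 on the opposite strand. How the counting handled strand and reads shared by near copies is not given in the sources used here, so the value of any single member may hold reads of a neighbour or a paralog.

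HEK293T, a human embryonic kidney line transformed with the SV40 T antigen, was profiled as single cells by LAST-seq (2 libraries of 10 cells), by CEL-seq2 (2 libraries of 10 cells) and by SMART-seq V4 (6 cells). LAST-seq amplifies the RNA of a cell directly by in vitro transcription, whereas CEL-seq2 first turns it into double-stranded cDNA. Both count UMIs near the 3′ end, and SMART-seq counts reads over full-length cDNA. The replicate libraries of an assay carried different spike-in RNAs, and nothing says that they came from separate cultures, so p-values between them measure only the spread between these libraries. Pools of 10 wells of HEK293T lysate (LAST-seq and CEL-seq2) and of 15-pg total RNA (LAST-seq) gave the same measurement without differences between cells. eHAP1, a haploid line derived from a chronic myeloid leukaemia line, was profiled by LAST-seq in pools of 80 wells. Cells were sorted as haploid and in G1 phase, and haploid cells were kept with the taxane 10-Deacetylbaccatin-III upon subcloning. WT held 73 and 75 cells in batches 1 and 2, and SCC4 KO 77 and 76. The knockout was made with Cas9 and grown from single cells, so that genotype and clone cannot be told apart. SCC4 (gene symbol MAU2) is a subunit of the complex that loads cohesin, the ring that folds chromatin into loops. HEK293T cells carried no edit. Each eHAP1 genotype was deposited as 1 sample, so 2 batches stand for it and comparisons between genotypes or lines rest on rules of size, with a test across all genes as an alternative.

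The HEK293T UMI libraries held 798047 to 1554129 UMIs and the eHAP1 batches 6434247 to 12301326. Members summed to 1571 to 1917 CPM (UMIs per 1000000 UMIs of the library) in the LAST-seq libraries of HEK293T, 2020 to 3596 in those of CEL-seq2 and 1605 to 1737 in the eHAP1 batches. Well indexes recur between libraries by design, and counts of wells with the same index differed by more than sampling noise (at least 1.48 times its variance). Markers gave the line labels little support: PAX2, a gene of the developing kidney, was higher in eHAP1 WT (14.9 and 16.0 CPM) than in HEK293T (0 and 1.32). The blood genes GATA1, SPI1, PTPRC, HBG1 and HBG2 had no row in either eHAP1 table, and GATA2 had 15.5 and 10.7 CPM in WT.

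The 2 eHAP1 tables were each a join of the batches that kept nearly only genes found in both. Of the 998 genes with 20 to 29 UMIs in the KO table, 110 had no row in the WT table, whereas 4 had a row with 1 UMI and 15 a row with 2. A missing row is therefore not a count of 0, and a member without a row in a table was given neither a value nor a state there. The tables of WT and KO listed 208 and 201 of the 249 members. Both listed 188, 20 were only in the WT table, 13 only in the KO table and 28 in neither. ZNF613 was listed only in KO, with 39 and 31 UMIs in batches 1 and 2, and ZNF749 only in WT, with 6 and 50. What the other genotype held of these 33 members is not known from these tables.

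In order along the chromosome (GRCh38), 235 members formed 10 clusters of 4 or more with gaps under 500 kb, and 14 lay outside. The largest were ZNF264 to ZNF446 near the long-arm end (57.2 to 58.5 Mb, 43 members), ZNF175 to ZNF331 (51.6 to 53.6 Mb, 40 members) and ZNF101 to ZNF254 (19.7 to 24.1 Mb, 37 members). Promoter sequences of 300 bases, from 250 before to 50 after the transcription start, were matched in RefSeq (GRCh38.p14) for 218 members. They held a median of 20 CG pairs (interquartile range 14 to 25.8), against 22 (9 to 32) over 15345 protein-coding genes. CG was searched as these letters, which read the same on both strands. Of all 35116 promoters in the table, 96.0% held at least 1 CG pair and 56.4% at least 10. The members of ZNF101 to ZNF254 had the lowest median of any cluster, 10 CG pairs over 29 matched promoters.

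Promoters are printed below 5′ to 3′ on the gene's strand, with CG in capitals, for 7 members that the results turn on and that have 1 promoter in the table, chosen after their values were seen. ZNF85 (chr19:20923001-20923300, plus strand), ZNF543 (chr19:57320222-57320521, plus) and ZNF470 (chr19:56567218-56567517, plus) rose in SCC4 KO. ZNF850 (chr19:36772758-36773057, minus) and ZNF557 (chr19:7069453-7069752, plus) fell. ZNF836 (chr19:52171572-52171871, minus) was on in eHAP1 and off in HEK293T, and ZNF329 (chr19:58150740-58151039, minus) the reverse.
ZNF85: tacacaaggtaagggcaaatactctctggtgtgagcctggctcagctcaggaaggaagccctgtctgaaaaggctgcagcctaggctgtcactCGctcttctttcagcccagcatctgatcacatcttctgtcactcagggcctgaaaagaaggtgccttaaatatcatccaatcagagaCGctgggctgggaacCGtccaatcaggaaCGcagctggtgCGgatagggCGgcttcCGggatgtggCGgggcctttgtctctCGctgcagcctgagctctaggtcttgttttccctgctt
ZNF543: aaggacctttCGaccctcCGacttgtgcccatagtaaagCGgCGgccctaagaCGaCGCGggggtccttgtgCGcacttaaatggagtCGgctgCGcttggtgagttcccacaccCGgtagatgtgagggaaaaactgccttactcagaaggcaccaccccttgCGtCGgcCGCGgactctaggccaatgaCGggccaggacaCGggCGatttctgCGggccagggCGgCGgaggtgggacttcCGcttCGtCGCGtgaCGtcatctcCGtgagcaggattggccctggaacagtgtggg
ZNF470: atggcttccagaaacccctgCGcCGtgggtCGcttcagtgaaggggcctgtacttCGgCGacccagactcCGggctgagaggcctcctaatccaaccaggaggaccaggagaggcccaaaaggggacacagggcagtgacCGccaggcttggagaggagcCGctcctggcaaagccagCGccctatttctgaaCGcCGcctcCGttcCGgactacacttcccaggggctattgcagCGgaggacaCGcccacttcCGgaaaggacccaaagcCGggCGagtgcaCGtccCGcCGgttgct
ZNF850: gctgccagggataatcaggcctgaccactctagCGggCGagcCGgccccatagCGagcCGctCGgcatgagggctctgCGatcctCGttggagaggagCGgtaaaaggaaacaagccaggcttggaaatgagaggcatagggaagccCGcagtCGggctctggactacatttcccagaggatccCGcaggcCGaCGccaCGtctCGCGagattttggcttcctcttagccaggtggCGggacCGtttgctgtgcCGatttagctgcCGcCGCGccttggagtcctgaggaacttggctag
ZNF557: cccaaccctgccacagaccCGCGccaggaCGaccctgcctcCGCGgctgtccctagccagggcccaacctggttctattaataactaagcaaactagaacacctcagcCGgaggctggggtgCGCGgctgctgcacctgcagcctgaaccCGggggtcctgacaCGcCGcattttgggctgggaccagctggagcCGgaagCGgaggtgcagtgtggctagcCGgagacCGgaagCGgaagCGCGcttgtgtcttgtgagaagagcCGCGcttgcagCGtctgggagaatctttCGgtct
ZNF836: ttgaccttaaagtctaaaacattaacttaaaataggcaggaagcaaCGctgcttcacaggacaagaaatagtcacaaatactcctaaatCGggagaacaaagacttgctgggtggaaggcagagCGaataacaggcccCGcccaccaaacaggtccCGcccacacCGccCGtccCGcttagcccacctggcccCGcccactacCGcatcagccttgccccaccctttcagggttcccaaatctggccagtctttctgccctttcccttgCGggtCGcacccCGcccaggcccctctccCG
ZNF329: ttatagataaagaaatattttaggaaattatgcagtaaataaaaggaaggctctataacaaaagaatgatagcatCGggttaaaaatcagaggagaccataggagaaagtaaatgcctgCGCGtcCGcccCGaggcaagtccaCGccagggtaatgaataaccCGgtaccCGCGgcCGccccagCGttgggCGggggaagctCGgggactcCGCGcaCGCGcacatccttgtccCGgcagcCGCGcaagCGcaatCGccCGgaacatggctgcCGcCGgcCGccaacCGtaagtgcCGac
The number of CG pairs ran from 9 in ZNF85 and 14 in ZNF836 to 27 in ZNF543 and 28 in ZNF329. Members that differed in the same direction thus lay at both ends of this range.

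Detection of members in a single cell was compared between assays at 359989 reads in exons per HEK293T cell. LAST-seq detected 86.8 ± 11.1 members per cell in replicate 1 and 85.8 ± 7.64 in replicate 2 (SD, n = 10 cells each). CEL-seq2 replicate 1 detected 131.5 ± 11.3 (n = 10 cells), and SMART-seq 42.7 ± 4.51 (n = 6 cells). Of all protein-coding genes, LAST-seq detected 40.4% and 42.1% per cell, CEL-seq2 49.2% and SMART-seq 24.2%, against 34.9% and 34.4%, 52.8% and 17.2% of members. The cells of the 3 assays did not overlap: the highest LAST-seq cell reached 97.6 members, the lowest CEL-seq2 cell had 108.9 and the highest SMART-seq cell 49.4. Wells of 1 library share a pool, so the SD is no replicate error of an assay, and with 1 library of reads for CEL-seq2 and SMART-seq no test between assays was made.

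**Figure D1:**
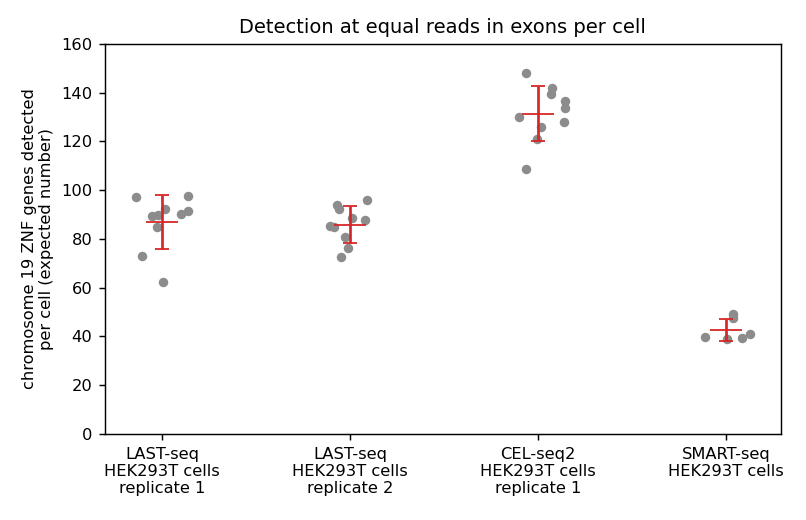
Members detected per HEK293T cell (y axis, expected number at 359989 reads in exons) in 4 libraries. Points are cells, and red marks are the mean and SD over the cells of a library. CEL-seq2 cells lie above 108 members, LAST-seq cells between 62.2 and 97.6, and SMART-seq cells under 50.

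The order of the assays was the same for the 267 ZNF genes of other chromosomes, of which LAST-seq detected 116.1 and 121.2, CEL-seq2 164.9 and SMART-seq 49.7 per cell. Olfactory receptor genes of chromosome 19 were taken as a list that neither line should express. They gave 0.7 and 0.8 of 20 genes per LAST-seq cell, 2.1 per CEL-seq2 cell and 1.2 per SMART-seq cell. The eHAP1 WT batches held 101 and 104 UMIs over 10 and 11 of these genes. Of the list, 1 gene averaged 5 CPM or more by LAST-seq in at least 1 line, so its values are no clean background. When UMIs were thinned to 50000 per well, LAST-seq cells held 57.1 ± 2.48 and 53.3 ± 3.77 members, and CEL-seq2 cells 83.9 ± 7.37 and 71.3 ± 19.01 (SD, n = 10 cells each). The spread within CEL-seq2 replicate 2 was wide, from 52.6 to 118.8 members per cell, so that its lowest cells fell among those of LAST-seq. At the same number of UMIs, lysate wells held 44.8 ± 2.31 members by LAST-seq and 55.3 ± 7.62 by CEL-seq2, and RNA wells by LAST-seq held 49.7 ± 2.2 (n = 10 wells each). eHAP1 cells held means of 44 to 47.9 in the 4 batches, of listed members only, with 4 cells under 50000 UMIs left out. Without thinning the LAST-seq means were 100.1 and 97.9, those of CEL-seq2 135.2 and 121.0, and those of the eHAP1 batches 60.7 to 88.9.

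Most members were scarce in LAST-seq cells. An average of 1 UMI or more per HEK293T cell by LAST-seq was reached by 86 and 84 members (34.5% and 33.7%), against 41.4% and 43.0% of all protein-coding genes. By CEL-seq2 139 and 118 members (55.8% and 47.4%) reached it. A mean of 5 UMIs was reached by 6 members in each LAST-seq replicate and by 21 and 11 in the CEL-seq2 replicates. The highest by LAST-seq was ZNF121, with 19.2 and 21.6 UMIs per cell by LAST-seq and 23.6 and 20.3 by CEL-seq2, so that the assays overlapped. ZNF428 had 19.1 and 21.2 UMIs per LAST-seq cell but 3.3 and 1.5 per CEL-seq2 cell. ZNF302 had the opposite pattern, with 10.7 and 14.0 by LAST-seq and 49.3 and 80.1 by CEL-seq2. ZNF146, which consists of zinc fingers with no KRAB, had 10.0 and 19.6 UMIs per LAST-seq cell and 21.4 and 12.7 per CEL-seq2 cell, so that its assays overlapped. ZNF581 (3.70 and 7.50 by LAST-seq, 4.70 and 4.60 by CEL-seq2) and ZNF580 (5.50 and 5.70, 7.70 and 3.60), adjacent short genes in cluster ZNF628 to ZNF835, overlapped as well.

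Among members tested between the 2 UMI assays with edgeR's quasi-likelihood test on library sums, 1 of 121 was higher in LAST-seq and 14 were lower at a Benjamini-Hochberg adjusted p of 0.05 or less. The background over all 11271 genes tested was 11.3% higher and 14.8% lower, so that the share of members lower in LAST-seq (11.6%) was near the background and the share higher (0.83%) was under it. The median log2 fold change of the members was -0.27, that of all protein-coding genes -0.02 and that of ZNF genes of other chromosomes -0.43. The filter on low counts kept members that were high in either assay, and the 128 members it removed have no call. The count of 14 lower members fell to 5, 4 and 5 without LAST-seq replicate 1, LAST-seq replicate 2 or CEL-seq2 replicate 1, was 7 by DESeq2 and rose to 23 with library totals in place of TMM.

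ZNF428 was the member higher in LAST-seq, with 191 and 212 UMIs by LAST-seq against 33 and 15 by CEL-seq2. Its log2 fold change was 3.45 (SE 0.37, edgeR adjusted p = 0.000578), and the lysate libraries went the same way, with 119 UMIs against 27. ZNF428 overlaps SRRM5 on the opposite strand, and where the reads of each assay ended in it was not tested. ZNF302 was lower in LAST-seq by 2.09 on the log2 scale (SE 0.37, edgeR adjusted p = 0.00465), with 107 and 140 UMIs against 493 and 801, and with 89 against 296 in lysate.

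The 5 lowest fold changes belonged to members with few UMIs in LAST-seq. ZNF160 had 0 and 1 UMIs by LAST-seq against 12 and 11 by CEL-seq2. ZNF773 had 1 and 1 against 16 and 12, and ZNF611 1 and 1 against 13 and 10. These 3 rest on counts too low to size the difference, though the assays do not overlap in any of them. ZNF585A had 0 and 6 against 48 and 20 (log2 fold change -3.08, SE 0.95, edgeR adjusted p = 0.0387). ZNF430 had 2 and 7 against 43 and 39 (log2 fold change -2.82, SE 0.68, edgeR adjusted p = 0.0144). In lysate, 13 of the 14 members were again lower by LAST-seq. Members lower in LAST-seq had a median annotated transcript of 4765 bases and a GC content of 35.0% over the last 500 bases, against 4231 bases and 35.8% in the 106 members tested and not called.

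**Figure D2:**
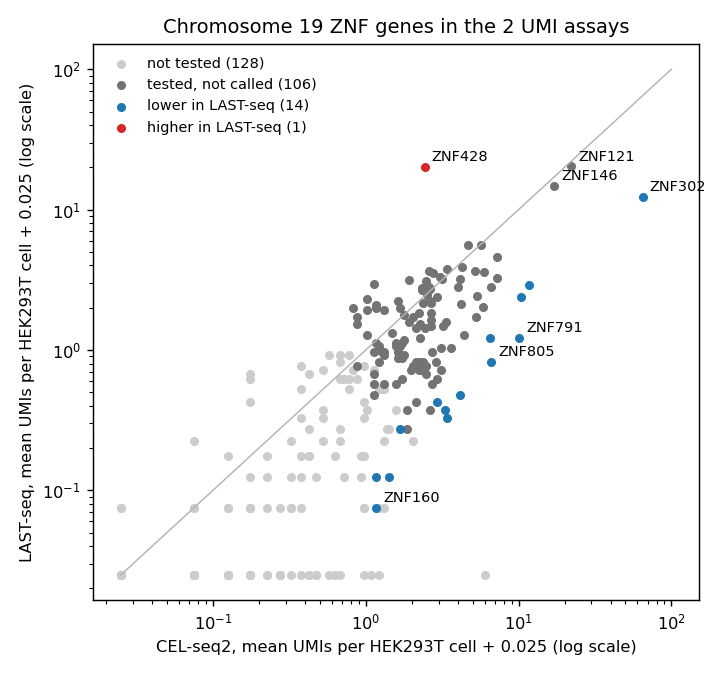
Mean UMIs per HEK293T cell of each member by CEL-seq2 (x axis) and LAST-seq (y axis), means of 2 libraries with 0.025 UMI added, log scales, with the line of equal values. Most of the 121 members tested lie near the line, ZNF428 lies far above it, and ZNF302 and 13 other members called by edgeR lie below it.

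The state of each member in HEK293T and eHAP1 was read from LAST-seq. A member was called on in a line at 5 or more CPM in each library, and off under 1 in each. In HEK293T an off member had 0 or 1 UMI per library, so that low expression and none were not told apart at this depth. HEK293T cells were pooled by 10 and eHAP1 cells by 80, and line and pool size cannot be told apart. In HEK293T 72 members were on, 99 between and 78 off. In eHAP1 WT 67 were on, 94 between, 47 off and 41 not listed.

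Of the 208 members listed in eHAP1 WT, 47 (22.6%) were on in both lines and 26 (12.5%) off in both. Over all 13565 protein-coding genes listed, 53.4% were on in both and 9.8% off in both, and over the 225 listed ZNF genes of other chromosomes 35.6% and 6.7%. A complete switch between the lines was found in 4 members. ZNF329 was on in HEK293T and off in eHAP1 (background 0.509%), and ZNF836, ZNF536 and ZNF558 were off in HEK293T and on in eHAP1 (background 1.52%). Out of 208, these counts of 1 and 3 were near the background.

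ZNF836 (chr19:52153864-52171643, minus strand, in cluster ZNF175 to ZNF331) had 0 UMIs in both LAST-seq libraries of HEK293T and 252 and 413 UMIs (34.2 and 33.6 CPM) in the batches of eHAP1 WT, where 65 of 73 and 74 of 75 cells held it. Taking a floor of 3 UMIs over both HEK293T libraries, eHAP1 was at least 33.1-fold higher. CEL-seq2 counted 6 and 1 UMIs of ZNF836 in HEK293T, so that the line does hold some. ZNF836 was the highest member of its cluster in eHAP1. On the opposite strand, ZNF836 overlaps PPP2R1A. ZNF536, outside the clusters, encodes a zinc finger protein of the brain that has no KRAB. It had 0 and 1 UMIs in HEK293T and 206 and 344 in eHAP1 WT, a ratio in CPM of 82.0 (exact 95% interval 14.7 to 3250, counting error only). ZNF558 had 0 UMIs in both HEK293T libraries and 52 and 129 in eHAP1 WT, at least 9.0-fold higher. ZNF329 had 23 and 11 UMIs in HEK293T and 3 and 2 in eHAP1 WT. In SCC4 KO it had 2 and 9.

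The state of members differed by cluster. Cluster ZNF414 to ZNF846 had 8 of 14 members on in HEK293T and 8 in eHAP1, led by ZNF121 (135 and 143 CPM in HEK293T, 67.6 and 72.8 in eHAP1). Cluster ZNF101 to ZNF254 had 3 of 37 on and 22 off in HEK293T, and in eHAP1 5 were on, 11 off and 11 not listed. Its highest members in HEK293T were ZNF101 (29.5 and 13.9 CPM), ZNF738 (25.97 and 11.92) and ZNF714 (16.1 and 15.9). Cluster ZNF565 to ZNF573 had 12 of 26 members on and 1 off in HEK293T. In eHAP1 7 of its members were on and 6 off. CEL-seq2 found 14 members of ZNF101 to ZNF254 on and 10 off in HEK293T, so that the count of silent members there depended on the assay.

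**Figure D3:**
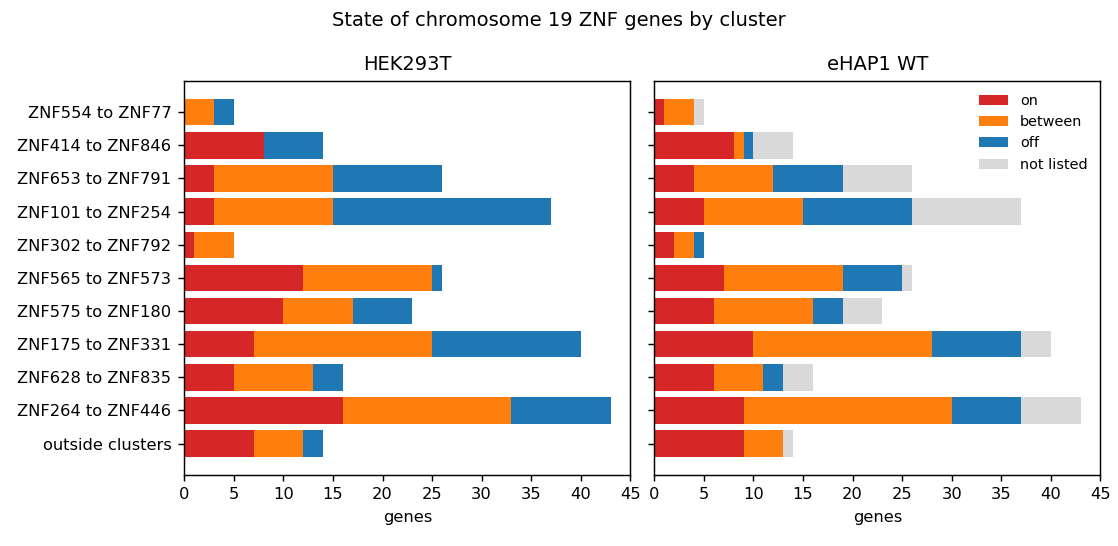
Number of members (x axis) by state in each cluster (y axis, ordered along the chromosome, named by first and last member) in HEK293T and in eHAP1 WT, by LAST-seq. Cluster ZNF101 to ZNF254 has 22 of 37 members off in HEK293T, whereas cluster ZNF565 to ZNF573 has 1 of 26.

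Promoters of members on in both lines held a median of 22 CG pairs (interquartile range 18 to 27, 45 matched), and those of members off in both held 13 (10 to 26.3, 24 matched). The ranges overlapped, and cluster ZNF101 to ZNF254, with the fewest CG pairs, held many of the off members. The annotated transcripts had medians of 3983 and 3801 bases.

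Between the lines, 120 members reached 5 CPM on average in one of them. The lowest library of HEK293T was more than 2-fold above the highest batch of eHAP1 WT for 21 members (17.5%, background 12.3%), and the reverse held for 8 (6.67%, background 12.6%). The median log2 ratio of HEK293T over eHAP1 was 0.55 in these members, 0.21 in all protein-coding genes and 0.34 in ZNF genes of other chromosomes. By edgeR's quasi-likelihood test on the 4 sums, 15 of 134 members were higher in HEK293T (11.2%, background 13.9%) and 12 lower (8.96%, background 18.7%). Members were thus above the background among genes higher in HEK293T by the 2-fold rule and below it by edgeR.

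After ZNF329, the members highest in HEK293T were ZNF264 and ZNF829. ZNF264 had 35 and 31 UMIs in HEK293T (24.6 and 20.5 CPM) and 14 and 2 in eHAP1 WT (1.90 and 0.16), so that its eHAP1 batches themselves lay far apart. ZNF829 had 13 and 3 UMIs in HEK293T and 3 and 3 in eHAP1. ZNF583 (3.51 and 6.62 CPM against 1.09 and 0.16) and ZNF550 (7.72 and 7.29 against 1.09 and 0.49) were also low in eHAP1. ZNF274, which binds the 3′ ends of zinc finger genes and recruits SETDB1 to them, had 21.1 and 31.1 CPM in HEK293T and 3.39 and 2.36 in eHAP1, 9.01-fold lower (edgeR log2 fold change of HEK293T over eHAP1 2.98, SE 0.45, adjusted p = 0.0047).

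On the eHAP1 side, ZNF799 had 10 and 1 UMIs in HEK293T (7.02 and 0.66 CPM) and 251 and 407 in eHAP1 WT (34.1 and 33.1). ZNF813 had 1.40 and 3.31 CPM in HEK293T and 12.2 and 13.3 in eHAP1 (edgeR log2 fold change -2.63, SE 0.58, adjusted p = 0.0177). ZNF554 had 0.70 and 1.99 against 12.9 and 6.02. That the values of the lines do not overlap in these 3 follows from the 2-fold rule that picked them. Another protein-coding gene is annotated over ZNF799 on the same strand.

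**Figure D4:**
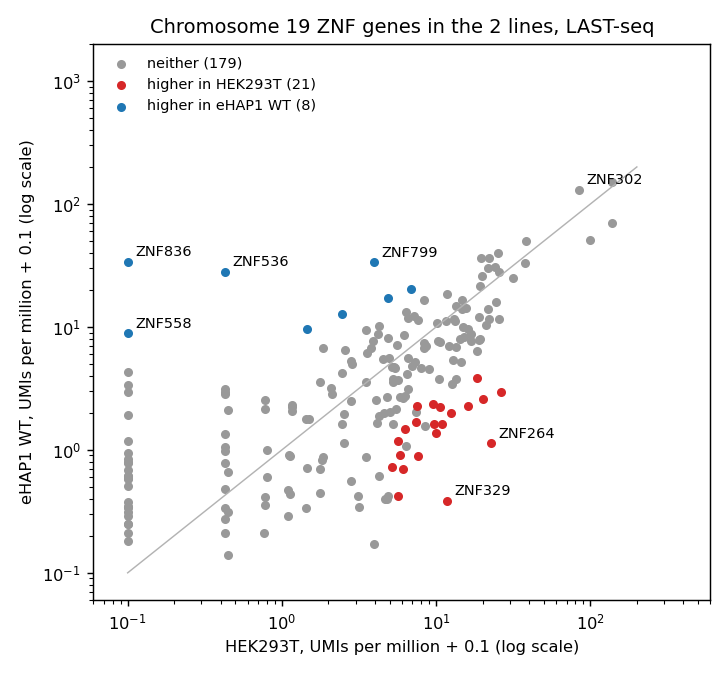
CPM of the 208 listed members in HEK293T (x axis) and eHAP1 WT (y axis) by LAST-seq, means of 2 libraries or batches with 0.1 added, log scales, with the line of equal values. Red and blue points are the 21 and 8 members past 2-fold between every library of one line and every batch of the other, and ZNF836 and ZNF558 stand at 0 in HEK293T.

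The knockout was checked on its target first. MAU2 had 326 and 507 UMIs in the batches of eHAP1 WT (4.47 and 6.76 per cell) and 59 and 169 in those of SCC4 KO (0.77 and 2.22 per cell). The log2 ratio of KO over WT was -2.26 in batch 1 and -1.51 in batch 2. UMIs near the 3′ end do not read the edited site, so MAU2 shows here only that its RNA was lower.

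A change in SCC4 KO was called where a gene passed 2-fold in the same direction in each batch, among genes listed in both genotypes and averaging 0.1 UMI per cell or more in either. Of the 169 members that met this, 14 were higher in KO (8.28%, background 5.58%) and 9 lower (5.33%, background 4.12%), over 15795 genes tested. With TMM scaling in place of library totals, 11 were higher and 11 lower. Among ZNF genes of other chromosomes, 9 of 198 were higher and 14 lower. None of the members went from off in WT to on in KO (background 0.0478%) or from on to off (background 0.0398%). By edgeR's quasi-likelihood test on the batch sums, 16 of 159 members were higher (10.1%, background 15%) and 8 lower (5.03%, background 15.1%), and 11 of the 23 members past 2-fold were among these. Both shares were thus above the background by the 2-fold rule and below it by edgeR. Whether batch 1 of WT and batch 1 of KO were 1 experiment is not given in the sources used here. In 18 of the 23 members every KO batch was past 2-fold from every WT batch. Batch 1 alone gave 33 members higher and 34 lower, and batch 2 alone 41 and 15. Both directions together were 39.6% and 33.1% of members, against 22.4% and 20.1% of protein-coding genes.

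The machinery that KRAB proteins recruit was read beside them, from a list of 15 genes. None rose past 2-fold in each batch (background 5.58%) and 1 fell (6.67%, background 4.12%). SETDB1, the histone H3 lysine 9 methyltransferase of the complex, fell from 38.8 and 37.3 CPM in WT to 13.7 and 15.0 in KO (edgeR log2 fold change -1.42, adjusted p = 5.5e-05). TRIM28, the corepressor that KRAB binds, had 469.0 and 477.3 in WT and 509.0 and 508.9 in KO (edgeR adjusted p = 0.108). By edgeR 2 of the 15 were higher, ATF7IP and CBX1 (13.3%, background 15%), and 7 were lower (46.7%, background 15.1%). The lower genes were SETDB1, MPHOSPH8, CBX5, DNMT1, HDAC1, HDAC2 and PPHLN1, most of them by under 0.5 on the log2 scale. Of 8 tested zinc finger genes of chromosome 19 with other names, ZFP28 and ZSCAN18 rose past 2-fold in each batch and none fell. By edgeR, ZFP28 and ZFP30 were higher (adjusted p = 0.0301 and 0.0342) and ZSCAN18 was not called (adjusted p = 0.0962). The shares of these 8 genes were not set against the background, since the genes were so few.

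ZNF543 (cluster ZNF264 to ZNF446) had the largest rise, from 1 and 0 UMIs in WT to 27 and 20 in KO, where 19 of 77 and 16 of 76 cells held it. Its ratio in CPM was 51.0 with an exact 95% counting interval of 8.73 to 2060, wide because WT held 1 UMI. ZNF85 (cluster ZNF101 to ZNF254) rose from 2 and 1 UMIs to 32 and 35, a ratio of 24.3 (7.95 to 121.0). For both genes each KO batch lay above both WT batches.

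ZNF571 rose from 2 and 4 UMIs to 23 and 36 (edgeR log2 fold change 3.38, SE 0.79, adjusted p = 0.0136). ZNF540, which overlaps ZNF571 and ZFP30 on the opposite strand, had 2 and 3 UMIs in WT and 8 and 15 in KO (edgeR adjusted p = 0.0922). ZFP30, not a member, had 25 and 57 UMIs in WT and 199 and 85 in KO (edgeR adjusted p = 0.0342). Counting that ignores strand would not tell ZNF540 apart from either neighbour. ZNF470 rose from 3 and 10 UMIs to 30 and 50 (edgeR log2 fold change 2.78, SE 0.73, adjusted p = 0.0222). ZNF468, which overlaps ZNF28 on the same strand, had 18 and 33 UMIs in WT and 52 and 122 in KO. It was 3.25-fold higher in batch 1 and 3.85-fold in batch 2 (edgeR adjusted p = 0.0213). All of these members stayed scarce in KO, under 11 CPM. The other rises were ZNF616, ZNF550, ZNF256, ZNF45, ZNF615, ZNF100, ZNF429 and ZNF234, of 2.03-fold to 5.73-fold in a batch. ZNF550 was uneven, with 42 and 12 UMIs in the KO batches, and its batch 2 lay inside the range of WT.

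The falls included members that were among the more abundant in eHAP1 WT. ZNF850 (cluster ZNF565 to ZNF573) fell from 162 and 228 UMIs to 18 and 36, that is from 22.0 and 18.5 to 2.80 and 3.08 CPM (edgeR log2 fold change -2.79, SE 0.29, adjusted p = 0.000198). The share of cells with a UMI of ZNF850 went from 58 of 73 and 58 of 75 in WT to 18 of 77 and 25 of 76 in KO. ZNF799 fell from 251 and 407 UMIs to 95 and 48, which was 2.30-fold in batch 1 and 7.98-fold in batch 2 (edgeR log2 fold change -1.96, SE 0.45, adjusted p = 0.0126). Both genes are also among the members higher in eHAP1 WT than in HEK293T, a comparison that shares the WT batches with this one. ZNF850 had 7.02 and 6.62 CPM in HEK293T, above both KO batches. On the opposite strand, ZNF850 overlaps ZNF567.

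ZNF599 fell from 57 and 134 UMIs to 14 and 33 (edgeR log2 fold change -1.91, SE 0.49, adjusted p = 0.0199). ZNF708 had 28 and 65 UMIs in WT and 5 and 21 in KO (edgeR adjusted p = 0.0922), and ZNF586 12 and 19 against 2 and 4 (edgeR adjusted p = 0.0778). On the same strand, ZNF586 overlaps ZNF587B. ZNF844 had 5 and 13 UMIs in WT against 1 and 2 in KO, a ratio of 5.52 with a counting interval of 1.61 to 29.3. ZNF557, singled out after its values were seen because its adjusted p was the lowest of all members, fell from 269 and 442 UMIs to 80 and 166 (edgeR log2 fold change -1.46, SE 0.13, adjusted p = 7.68e-05). In all 5 every KO batch was below every WT batch, which the 2-fold rule that picked them makes likely. ZNF284 and ZNF225 completed the 9.

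**Figure D5:**
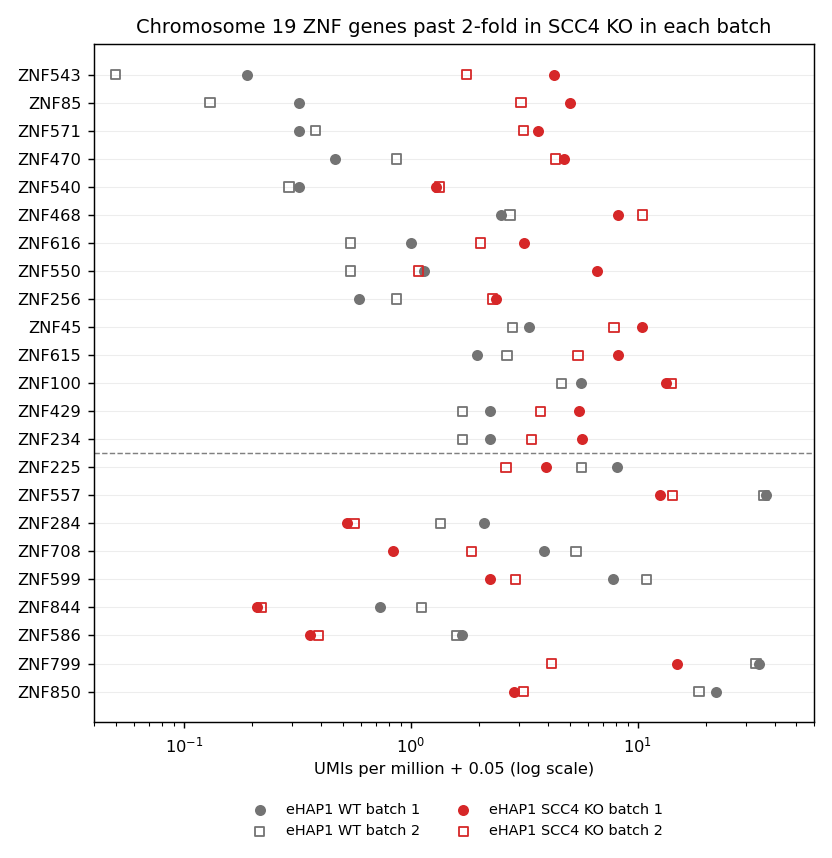
CPM (x axis, 0.05 added, log scale) of the 23 members past 2-fold in each batch, 14 higher in SCC4 KO above the dashed line and 9 lower below it. Grey marks are WT, red marks KO, filled circles batch 1 and open squares batch 2; the KO marks of ZNF543, ZNF85, ZNF571 and ZNF470 lie far right of WT, and those of ZNF850 far left.

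The called members were spread over 8 clusters and 1 position outside them, and 4 of the 8 clusters held members of both directions. Cluster ZNF175 to ZNF331 had 3 higher and none lower of 30 tested, and cluster ZNF264 to ZNF446 3 higher and 1 lower of 31. Among called members that are next to each other in the order of members, ZNF429 and ZNF100 both rose (166.5 kb apart), ZNF540 and ZNF571 both rose and overlap, and ZNF225 fell beside ZNF234, which rose (6.7 kb apart on the same strand).

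The typical member moved little, and not alike in the 2 batches. The median log2 ratio of KO over WT was 0.01 in batch 1 and 0.45 in batch 2, against -0.01 and 0.10 over all protein-coding genes. TMM scaling, which took the median of all genes in batch 2 from 0.11 to 0, gave members 0.03 and 0.34. In batch 1, 85 of 169 members (50.3%) lay above 0, and in batch 2, 116 (68.6%), against 49.3% and 57.3% of protein-coding genes. For the 65 members averaging 1 UMI per cell or more in either genotype, the medians were 0.05 and 0.12, against -0.01 and 0.05 in protein-coding genes of that level. The median was above 0 in both batches in 3 of 10 clusters: ZNF414 to ZNF846 (0.04 and 0.11), ZNF101 to ZNF254 (0.20 and 0.59) and ZNF264 to ZNF446 (0.20 and 0.48). Cluster ZNF653 to ZNF791 was below 0 in both (-0.86 and -0.14, 11 tested). Across the 169 members, the log2 ratios of the 2 batches had a Pearson r of 0.36, and across all protein-coding genes 0.38. The Spearman correlation was 0.316 over members and 0.504 over protein-coding genes. The sign was the same in both batches for 63.9% of members and 75.5% of protein-coding genes. By these 2 measures members agreed less. Detected members were also scarcer, with a median of 0.329 UMI per cell in WT batch 1 against 1.3 for protein-coding genes. Agreement at matched level was not computed. These correlations and shares are descriptions across genes, which are not independent replicates.

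Batches of 1 genotype differed past 2-fold in many members, though in fewer than the genotypes did. Past 2-fold between the batches were 50 of 169 members (29.6%) in WT and 34 (20.1%) in KO, against 13.8% and 13% of protein-coding genes. KO over WT was past 2-fold in 67 members in batch 1 (39.6%) and 56 in batch 2 (33.1%), against 22.4% and 20.1% of protein-coding genes. Of the 65 members averaging 1 UMI per cell or more, 3 (4.6%) differed that much between WT batches, near the 3.7% of protein-coding genes. In WT, ZNF610 had 1 UMI in batch 1 and 69 in batch 2, and ZNF585A 2 and 72, differences far beyond counting error. Both were singled out after their values were seen. ZNF585A was also among the members that differed between the assays in HEK293T.

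Variation between cells of a batch was set beside the technical noise that a capture efficiency of 0.35, assumed by the authors, predicts. The coefficient of variation (CV) was divided by the theoretical CV for members that averaged 1 UMI per cell or more in each batch. In WT, 36 members had a median ratio of 1.37 in batch 1 and 1.43 in batch 2, against 1.37 and 1.49 over 6958 protein-coding genes. In SCC4 KO, 35 members had 1.42 and 1.44, against 1.42 and 1.41 over 6638. All of these members had a ratio above 1 in both batches, as did 6943 of the 6958 protein-coding genes in WT. Members under 1 UMI per cell, the majority, were not assessed.

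The least variable members in WT were ZNF146 (1.20 and 1.18 in batches 1 and 2), ZNF358 (1.38 and 1.02), ZNF581 (1.06 and 1.43) and ZNF562 (1.21 and 1.31). The most variable was ZNF561, with ratios of 2.34 and 2.01, at means of 3.18 and 3.19 UMIs per cell. ZNF420 had 2.09 and 1.93, ZNF850 1.94 and 1.77, and ZNF536 1.53 and 2.10. The ranges of ZNF561, ZNF420 and ZNF850 did not overlap those of the least variable members, whereas ZNF358 and ZNF581 differed between batches by more than the median member differed from the least variable. In KO the most variable member was ZNF536, with 1.97 and 1.69. ZNF420 overlaps ZNF585A on the opposite strand.

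In HEK293T the median ratio of members was 1.22 and 1.27 in LAST-seq cells (77 and 80 members), 1.20 in RNA wells and 1.21 in lysate wells, so that cells differed little from wells of 1 pooled input. In CEL-seq2 cells it was 1.73 and 1.79 (144 and 119 members), with 1.45 in lysate wells. Protein-coding genes had 1.30 and 1.30 in LAST-seq cells and 1.80 and 1.74 in CEL-seq2 cells. The capture efficiency of 0.35 was set for LAST-seq, and 10 wells limit each value.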

How the data were processed

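The authors demultiplexed reads with bcl2fastq 2.20, trimmed them with cutadapt and counted exonic reads with zUMIs on GRCh38 and GENCODE v33, after bringing samples of an assay to equal depth, and UMIs were collapsed by sequence. The deposited values are counts of UMIs or reads per gene and well. Whether eHAP1 batches were corrected with ComBat-seq before deposit is not given in the sources used here. Members were matched by gene ID to GENCODE v44 (99.5% of 33735 IDs). SMART-seq lysate libraries were not used here.

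The members and lists were chosen with earlier results of these data known. Counts were summed per library or batch. Detection was the expected number of genes after thinning each cell to 359989 reads or 50000 UMIs. Assays were compared with edgeR 4.0.16 (R 4.3.3; quasi-likelihood test, TMM, filterByExpr, Benjamini-Hochberg adjustment at 0.05), checked on simulated counts. An SE beside an edgeR log2 fold change is the absolute log2 fold change divided by the square root of the F statistic. The test itself gives no SE. Lines and genotypes were compared in CPM with 0.5 UMI added and a 2-fold rule, and lines for genes at 5 CPM or more in either. Noise was the CV of scaled counts over the theoretical CV at a capture efficiency of 0.35. Exact intervals cover counting error at 95% only. Coordinates are GRCh38, 1-based.

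The planned design did not foresee that the eHAP1 tables hold nearly only genes found in both batches. Genes without a row were left out there, and counting them as 0 is an alternative chosen after seeing the data. A gene without a row in a HEK293T table was taken as 0. Alternatives were DESeq2 1.42.0, other filters, thresholds and scalings, and leaving out each library. Named members were the 6 highest in LAST-seq, the 5 highest and lowest fold changes between assays, members on in 1 line and off in the other, the 6 largest differences per direction between lines and genotypes, the 4 highest and lowest noise ratios, and the 3 highest of a cluster. Other names are said to be chosen after their values were seen.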

Additional observations from a re-analysis of the deposited data

How the results depend on the processing

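Of 115 alternatives computed, 66 left the value close to the reported one, 49 moved it and none changed the sign of a difference, though the balance of paired counts turned where given here. The cause of a move was not tested unless the alternative itself gives it. LAST-seq minus CEL-seq2, -45.2 members per cell, was -36.2 as deposited, -30.3 at 50000 reads and -40.9 with at least 2 reads. LAST-seq minus SMART-seq, 43.6, was 48.2, 14.0 and 31.4. Between LAST-seq and CEL-seq2, 2 members in place of 1 were higher without the filter on counts, and 1 to 2 when a library was left out. The 14 lower were 7 by DESeq2, 23 with library totals in place of TMM and 4 to 13 when a library was left out, with 5 without LAST-seq replicate 1, 4 without LAST-seq replicate 2 and 5 without CEL-seq2 replicate 1.

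With on at 10 or more and off under 0.5 CPM, 21 members in place of 47 were on in both lines, 11 in place of 26 off in both, 0 on in HEK293T and off in eHAP1, and 1 the reverse. With on at 2 or more, 82 were on in both and 7 on in HEK293T and off in eHAP1. With CEL-seq2 for HEK293T, 8 were off in both, 10 on in HEK293T and off in eHAP1, and 1 the reverse, so that the direction with more switches turned. With genes not listed counted as 0, an alternative chosen after seeing the data, 57 were off in both. Leaving out a library gave 3 to 5 members on in HEK293T and off in eHAP1 and 4 to 5 the reverse, since fewer libraries had to pass. Without the filter on level, 33 members in place of 21 were higher in HEK293T, and leaving out a library gave 29 to 41 higher in HEK293T and 11 to 17 in place of 8 higher in eHAP1.

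With an average of 1 UMI per cell or more, 3 members in place of 14 rose in SCC4 KO and 4 in place of 9 fell, since fewer members were tested. With genes not listed counted as 0, 20 rose and 14 fell. With TMM scaling 11 rose and 11 fell, so that rises no longer outnumbered falls. DESeq2 called 13 members higher and 12 lower. Batch 1 alone gave 33 rises and 34 falls, and batch 2 alone 41 and 15. The batches share only a number: the correlation of their deviations between WT and KO was 0.063 over members, and with 2 pairs no more can be read. With the batch as a replicate block, edgeR called 16 members higher and 14 lower, and without the block 16 and 8. The median noise ratio, 1.401 in WT and 1.427 in KO, was 1.263 and 1.287 with a capture efficiency of 0.2, 1.828 and 1.519 without scaling, where WT lay above KO and not below, 1.347 and 1.375 at a mean of 2 UMIs, and 1.452 in KO at a mean of 1 to 5 UMIs.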

Other observations

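ZNF442, chosen after its values were seen, had 119 UMIs in CEL-seq2 replicate 1, spread over all 10 cells, but 1 UMI in CEL-seq2 replicate 2. It had 0 in the LAST-seq cells, the RNA wells, the lysate wells of both assays and the SMART-seq cells, and 5 to 8 UMIs in each eHAP1 batch. ZNF430, counted 43 and 39 times by CEL-seq2 in HEK293T, had 1 to 3 UMIs in each eHAP1 batch.

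Members listed in 1 eHAP1 table only are given as values, since the other genotype is not known. In SCC4 KO, ZNF823 had 9 and 28 UMIs in batches 1 and 2, ZNF565 had 12 and 17, ZNF471 had 6 and 19, and ZNF547 had 9 and 14. In WT, ZNF154 had 9 and 30 UMIs, ZNF575 had 8 and 13, and ZNF221 had 4 and 13.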
